A study of Mus musculus with 7 samples.

Results

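The unfolded protein response and the chaperones of the endoplasmic reticulum (ER) were followed through 34 genes in RNA of the mouse abdominal aorta. They were found by symbol in the deposited count table, which held 21878 genes, and all 34 were present and passed the low-count filter that left 14609 genes. By known role, 15 are chaperones and folding enzymes, 8 serve degradation of ER proteins or entry into the ER, and 11 are stress sensors, transcription factors or stress-induced output genes. The tissue came from male C57BL/6 mice aged 8 weeks that had received angiotensin II (Ang II), a pressor peptide used to induce aortic aneurysm in hyperlipidaemic mice, over a period of at most 28 days. Of the 7 libraries, 4 were labelled ApoE-/-Nur77-/- (double knockout, DKO 1 to DKO 4) and 3 were labelled ApoE-/- (ApoE 1 to ApoE 3). Both groups shared the ApoE-/- label and the Ang II exposure, and by the labels they differ in Nur77, the gene symbol of which is Nr4a1. No group without Ang II and no group labelled with intact ApoE was analysed here. The labels do not say how each allele was made, on which day tissue was taken, or whether a library is 1 mouse, so the p-values measure the spread between these libraries.

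Secreted and membrane proteins fold in the ER, where BiP and other chaperones, lectins and disulfide isomerases assist them. When unfolded proteins accumulate, the sensors ATF6, IRE1 (gene Ern1) and PERK (gene Eif2ak3) start the unfolded protein response. ATF6 is cleaved to a transcription factor, IRE1 splices the Xbp1 mRNA, and PERK slows translation while it favours that of ATF4. ATF6 and spliced XBP1 are known for inducing chaperones and ER-associated degradation (ERAD), the route by which misfolded proteins leave the ER. ATF4 is known for inducing CHOP (gene Ddit3), TRIB3, CHAC1 and amino acid enzymes. In the aortic wall, smooth muscle cells and fibroblasts make large amounts of collagen and other matrix proteins that pass through the ER. Gene counts do not measure Xbp1 splicing, ATF6 cleavage or PERK activity.

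The labels were checked first. Nr4a1 was present in every library, at 46.2, 57.0, 90.1 and 92.7 CPM in DKO 1 to 4, against 193, 56.4 and 111 CPM in ApoE 1 to 3 (CPM, the counts divided by TMM-adjusted library totals). The groups overlapped (log2 fold change of -0.75 with an SE of 0.42, adjusted p = 0.360 in edgeR), and the sources do not give the deleted part of the gene, outside which reads check nothing. Apoe was counted at 34.7, 18.3, 33.8 and 28.1 CPM in DKO 1 to 4, against 233, 250.3 and 184 CPM in ApoE 1 to 3. Apoe mRNA was therefore high in the libraries labelled ApoE-/- and low in those labelled DKO (log2 fold change of -2.95 with an SE of 0.23, adjusted p = 0.0227 in edgeR), although both labels include ApoE-/-, so group names below are those of the labels only. Library totals were 19295287 to 21727192 counts, and 3 counts, the floor used here, equal 0.133 to 0.164 CPM. The smooth muscle markers of the labelled tissue (Myh11, Acta2, Tagln, Cnn1, Smtn, Lmod1 and Myocd) were present in every library, with summed levels of 7975 to 28861 CPM in the DKO libraries and 15133 to 23566 CPM in the ApoE libraries. Markers of other tissues were counted as well. White adipocyte markers summed to 5110.2 to 7894 CPM in the DKO libraries and 10546 to 14312 CPM in the ApoE libraries. Atrial cardiomyocyte markers summed to 21.4 to 49.2 CPM in the DKO libraries and 45.5 to 1387 CPM in the ApoE libraries, with the high values in ApoE 2 and ApoE 3 and with ApoE 1 inside the DKO range.

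The chaperones stood higher in the libraries labelled DKO as a group of genes with small differences. All 15 had a positive log2 fold change (DKO over ApoE), between 0.16 and 0.61, with a median of 0.41. The median of all 14609 genes tested was -0.02, and 47.4% of them were positive. CPM did not overlap between the groups, with DKO above, for 13 of the 15, P4hb and Dnajb9 being the exceptions. Of all genes tested, 7.08% did not overlap with DKO above and 9.24% with DKO below. All genes are an unlike background, since the median SD of log2 CPM within groups was 0.12 for the chaperones and 0.22 for all genes. The list was also chosen with earlier results known, and the part of either in the count of 13 was not tested. Over all 34 genes, 18 were separated with DKO above and 1 with DKO below. The mean log2 CPM over the 15 genes was 7.79, 7.92, 7.74 and 7.91 in DKO 1 to 4, against 7.47, 7.53 and 7.39 in ApoE 1 to 3. Together they took 0.575 ± 0.030% of all counts in the DKO libraries (SD, n = 4) and 0.429 ± 0.036% in the ApoE libraries (SD, n = 3). In bulk tissue, more cells of a secretory type and more chaperone RNA per cell cannot be told apart.

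No chaperone, and none of the 34 genes, passed edgeR's quasi-likelihood test at a Benjamini-Hochberg adjusted p of 0.05 over all genes tested. Their adjusted p ranged from 0.118 to 0.879, and the test called 0% of all genes higher and 0.0274% lower in the DKO libraries. At an unadjusted p under 0.05, 18 of the 34 were higher and 2 lower, beside 8.00% of all genes higher and 11.8% lower. DESeq2 on the same counts called 16 of the 34 higher and 1 lower, beside 3.23% of all genes higher and 4.80% lower. Limma voom with library quality weights called 12 higher and 2 lower, beside 6.17% of all genes higher and 10% lower. Its weights were uneven, with DKO 3 (2.81) and ApoE 1 (2.43) counting most and DKO 4 (0.406) least. DESeq2 and voom shared 11 of the genes called higher: Hspa5, Hsp90b1, Canx, Pdia4, Dnajb11, Dnajc3, Sdf2l1, Hyou1, Sel1l, Edem1 and Creb3l1. Herpud1 was the 1 gene that both called lower. The call on a single gene thus depended on the tool.

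**Figure D1:**
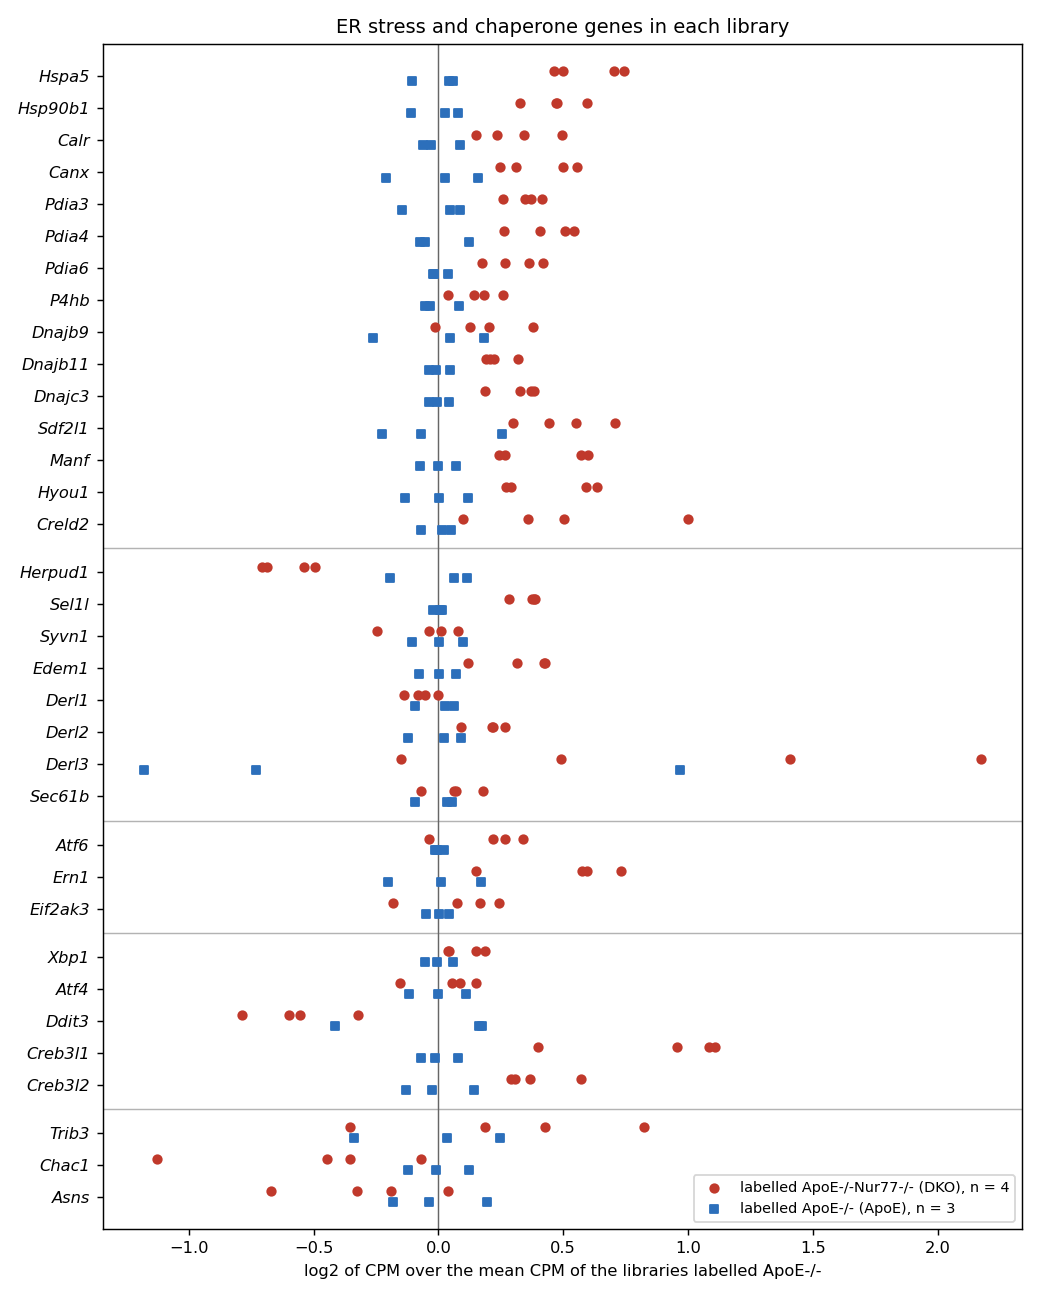
CPM of each of the 34 genes in each library, as log2 of CPM over the mean CPM of the 3 ApoE libraries (x axis; red circles, the 4 DKO libraries; blue squares, the 3 ApoE libraries), with rows grouped by role. Red circles lie wholly right of the squares for 13 of the 15 chaperones and wholly left of them for Herpud1, while the sensor and output rows mix, with Chac1 and Asns reaching farthest left in DKO 4.

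Hspa5 encodes BiP, the Hsp70-type chaperone of the ER lumen that binds and restrains the stress sensors, and it had the largest log2 fold change of the chaperones. The gene lies at chr2:34772090-34776529 on GRCm38.p6. It was counted at 734, 869.9, 715 and 846 CPM in DKO 1 to 4, against 541, 534 and 483 CPM in ApoE 1 to 3. The lowest DKO library was above the highest ApoE library, the ratio of the group means was 1.52, and the gene stood 124th of 14609 by p (log2 fold change of 0.61 with an SE of 0.12, adjusted p = 0.122 in edgeR). Hsp90b1, the ER form of Hsp90 (GRP94), was counted at 764, 832, 690.1 and 766 CPM in DKO 1 to 4, against 561, 582 and 509.9 CPM in ApoE 1 to 3. Its groups were separate as well (log2 fold change of 0.47 with an SE of 0.11, adjusted p = 0.146 in edgeR). Within a library the ratio of Hspa5 to Hsp90b1 CPM was 1.04 ± 0.059 in the DKO libraries (SD, n = 4) and 0.943 ± 0.023 in the ApoE libraries (SD, n = 3), and the ranges overlapped. Hyou1 (GRP170), a nucleotide exchange factor for BiP, was counted at 144, 177, 142 and 183 CPM in DKO 1 to 4, against 107, 128 and 118 CPM in ApoE 1 to 3. It was highest in DKO 2 and DKO 4, with no overlap between the groups (log2 fold change of 0.46 with an SE of 0.13, adjusted p = 0.158 in edgeR).

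The lectin chaperones hold newly made glycoproteins until they fold. Calr (calreticulin, in the lumen) was counted at 843, 908, 795 and 1009 CPM in DKO 1 to 4, against 703, 759.8 and 687 CPM in ApoE 1 to 3. DKO 4 was the highest and DKO 3 the lowest of its group, and the groups did not overlap (log2 fold change of 0.31 with an SE of 0.12, adjusted p = 0.214 in edgeR). Canx (calnexin, its membrane-bound relative) was counted at 409, 425, 359 and 344 CPM in DKO 1 to 4, against 295, 323 and 250.4 CPM in ApoE 1 to 3. Here DKO 4 was the lowest DKO library and still lay above ApoE 2, the highest ApoE library (log2 fold change of 0.41 with an SE of 0.13, adjusted p = 0.170 in edgeR).

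The protein disulfide isomerases form and rearrange disulfide bonds. Pdia3 (ERp57), which works with the lectins, was counted at 683, 704, 632 and 672 CPM in DKO 1 to 4, against 561, 546 and 478 CPM in ApoE 1 to 3, and all 4 DKO libraries were above the ApoE libraries (log2 fold change of 0.35 with an SE of 0.10, adjusted p = 0.162 in edgeR). Pdia4 (ERp72) was counted at 195, 214, 176 and 208 CPM in DKO 1 to 4, against 141, 159.6 and 139 CPM in ApoE 1 to 3. It differed about as much as Hsp90b1 and did not overlap (log2 fold change of 0.43 with an SE of 0.10, adjusted p = 0.146 in edgeR). Pdia6 was counted at 296, 316, 278 and 329 CPM in DKO 1 to 4, against 243, 253 and 243 CPM in ApoE 1 to 3, a smaller difference that was also without overlap (log2 fold change of 0.31 with an SE of 0.091, adjusted p = 0.162 in edgeR). P4hb, which is both a disulfide isomerase and a subunit of collagen prolyl 4-hydroxylase, had the highest FPKM of the 34 genes and the smallest log2 fold change of the chaperones. It was counted at 1005, 955, 863 and 929 CPM in DKO 1 to 4, against 889, 811 and 822 CPM in ApoE 1 to 3. DKO 3 lay inside the ApoE range, so the groups overlapped (log2 fold change of 0.16 with an SE of 0.10, adjusted p = 0.428 in edgeR). The ratio of Pdia4 to P4hb CPM was 0.211 ± 0.015 in the DKO libraries (SD, n = 4) and 0.175 ± 0.020 in the ApoE libraries (SD, n = 3), with the lowest DKO value of 0.194 below the ApoE 2 value of 0.197.

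BiP's J-domain partners hand it unfolded clients. Dnajb11 (ERdj3) was counted at 108, 107, 117 and 109 CPM in DKO 1 to 4, against 96.6, 91.2 and 92.8 CPM in ApoE 1 to 3, a narrow but complete separation (log2 fold change of 0.24 with an SE of 0.072, adjusted p = 0.167 in edgeR). Dnajc3 (p58IPK) was counted at 188, 189, 182 and 165 CPM in DKO 1 to 4, against 142, 149.7 and 144 CPM in ApoE 1 to 3. DKO 4 was its lowest DKO value and still exceeded every ApoE value (log2 fold change of 0.32 with an SE of 0.082, adjusted p = 0.157 in edgeR). Dnajb9 (ERdj4), which in mice brings BiP to IRE1, averaged 47.6 ± 5.43 CPM in the DKO libraries (SD, n = 4) and 42.0 ± 6.40 CPM in the ApoE libraries (SD, n = 3). It overlapped, with DKO 4 below both ApoE 1 and ApoE 2 (log2 fold change of 0.18 with an SE of 0.14, adjusted p = 0.488 in edgeR). Sdf2l1, a partner of Dnajb11, was counted at 29.4, 35.1, 32.5 and 39.1 CPM in DKO 1 to 4, against 20.4, 28.5 and 22.8 CPM in ApoE 1 to 3. Every DKO library was above ApoE 2, the highest ApoE library, although DKO 1 was so by less than 1 CPM (log2 fold change of 0.51 with an SE of 0.15, adjusted p = 0.162 in edgeR).

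Manf and Creld2 encode proteins that cells make, and partly secrete, under ER stress. Manf was counted at 113, 142, 115 and 145 CPM in DKO 1 to 4, against 101, 91.1 and 95.7 CPM in ApoE 1 to 3. DKO 2 and DKO 4 were well above DKO 1 and DKO 3, which were themselves above the ApoE libraries (log2 fold change of 0.43 with an SE of 0.12, adjusted p = 0.158 in edgeR). Creld2 was counted at 38.0, 50.3, 45.5 and 70.9 CPM in DKO 1 to 4, against 35.9, 36.8 and 33.8 CPM in ApoE 1 to 3. DKO 4 was the highest library and DKO 1 was near the ApoE values, so the group difference was uneven although the groups did not overlap (log2 fold change of 0.53 with an SE of 0.20, adjusted p = 0.214 in edgeR). Among the DKO libraries, DKO 3 was the lowest for 8 of the 15 chaperones, while DKO 2 and DKO 4 were the highest for 6 each.

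**Figure D2:**
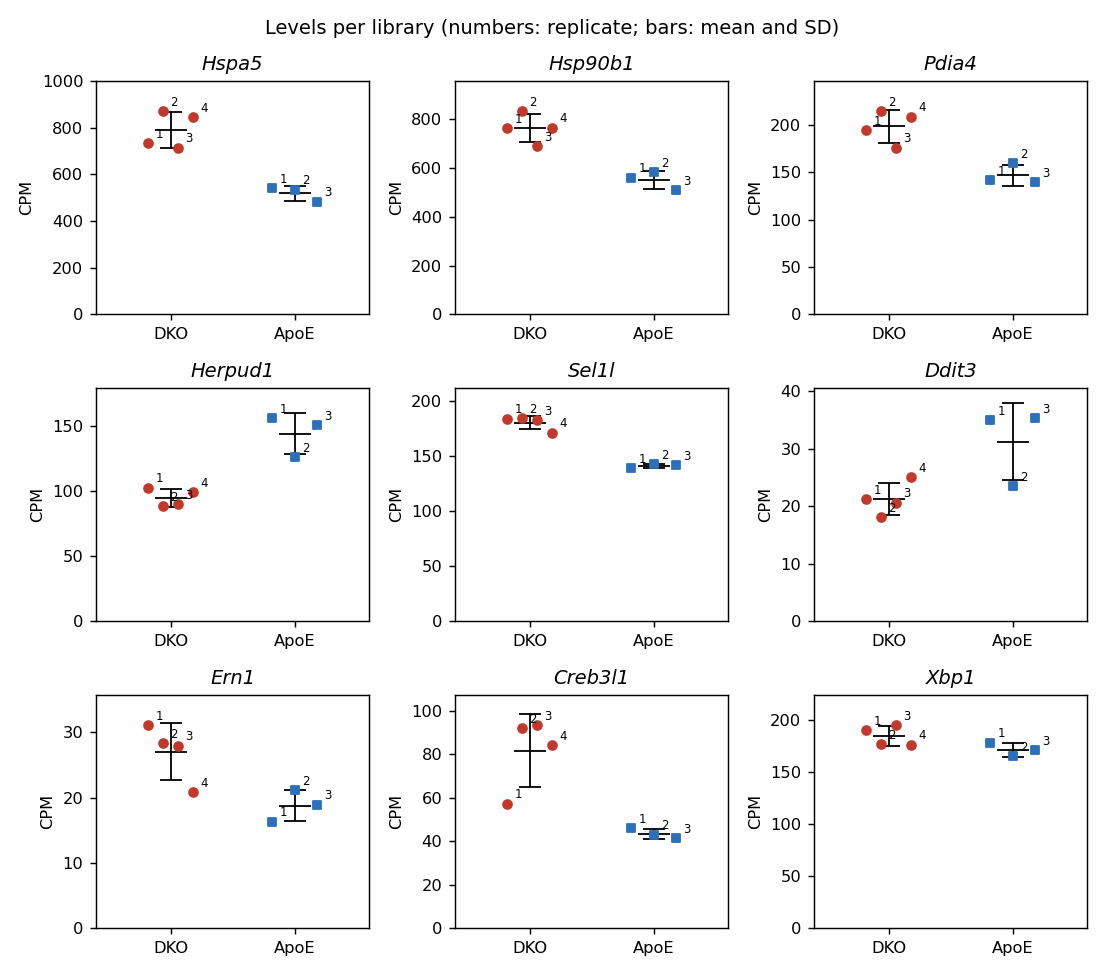
CPM of 9 of the genes in each library (points, numbered by replicate; bars, mean and SD), with the 4 DKO libraries left of the 3 ApoE libraries and axes from 0. Hspa5, Hsp90b1, Pdia4, Sel1l and Creb3l1 have all DKO points above the ApoE points, Herpud1 has them all below, and Ddit3, Ern1 and Xbp1 overlap.

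Promoter sequences are shown because the genes that stood higher together can be read against the elements known to drive the response. RefSeq windows on GRCm38.p6 ran from 250 bases before to 50 bases after an annotated start site, which for Edem1 lies inside the gene. They were matched for 29 of the 34 genes by gene identifier, or by symbol where the identifier had no window. Both strands were searched for the ER stress response element (ERSE: CCAAT and CCACG with 9 letters between them), ERSE-II (ATTGG and CCACG with 1 letter between), the core of the unfolded protein response element (UPRE: TGACGTG) and the core that ATF4 and CHOP are known to bind (CARE: TGATG and AA with 1 letter between), and no matches overlapped in these genes. Capitals mark the matched element with the letters between its parts, and a match on the opposite strand stands there as its reverse complement. Only exact matches were taken. Stretches that differ from an ERSE in a single letter, as in the windows of Hspa5 and Herpud1, therefore stay in lower case. The window of Hspa5 (chr2:34771840-34772139, plus strand) holds an ERSE and a UPRE core, that of Hsp90b1 (chr10:86705395-86705694, minus strand) holds an ERSE on each strand, and that of Herpud1 (chr8:94386179-94386478, plus strand) holds an ERSE-II and a CARE on the opposite strand.
Hspa5: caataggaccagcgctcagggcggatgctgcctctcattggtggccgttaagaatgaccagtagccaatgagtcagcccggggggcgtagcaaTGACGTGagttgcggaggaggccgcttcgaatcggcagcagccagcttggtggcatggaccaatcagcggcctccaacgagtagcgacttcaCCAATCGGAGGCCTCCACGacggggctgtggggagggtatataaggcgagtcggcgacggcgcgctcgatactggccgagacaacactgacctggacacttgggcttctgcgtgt
Hsp90b1: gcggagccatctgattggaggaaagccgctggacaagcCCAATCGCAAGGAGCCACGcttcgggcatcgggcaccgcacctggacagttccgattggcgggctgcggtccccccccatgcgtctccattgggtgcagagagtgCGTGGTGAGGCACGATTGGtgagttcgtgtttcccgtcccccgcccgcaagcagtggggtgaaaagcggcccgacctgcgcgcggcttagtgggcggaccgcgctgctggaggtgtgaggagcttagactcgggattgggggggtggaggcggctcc
Herpud1: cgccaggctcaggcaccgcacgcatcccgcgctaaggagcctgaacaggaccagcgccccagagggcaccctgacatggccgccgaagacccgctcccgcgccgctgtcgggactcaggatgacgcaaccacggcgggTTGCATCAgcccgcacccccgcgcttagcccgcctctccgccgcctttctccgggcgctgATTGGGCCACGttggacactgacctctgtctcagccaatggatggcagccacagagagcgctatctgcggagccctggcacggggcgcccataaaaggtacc

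An ERSE match was found for 9 of the 29 genes (31.0%; Derl2 has 2 windows, the others 1), against 39 of all 32851 RefSeq windows of the same length (0.119%). Of the 13 chaperones with a window, 7 (53.8%) had a match, and none of the 9 stress regulators with a window did. The genes were chosen by known role in the response that this element is known to drive. The share against all windows therefore says nothing about these libraries. The matches are set out for comparison, read along the strand on which CCAAT comes first, with the fixed letters in capitals.
Hspa5: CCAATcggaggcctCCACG
Hsp90b1 (site 1): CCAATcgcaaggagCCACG
Hsp90b1 (site 2): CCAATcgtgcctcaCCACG
Calr: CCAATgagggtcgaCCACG
Canx: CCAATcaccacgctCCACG
Pdia6: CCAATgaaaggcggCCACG
Dnajc3: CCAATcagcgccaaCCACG
Creld2: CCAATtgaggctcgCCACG
Syvn1: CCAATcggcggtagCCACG
Derl3: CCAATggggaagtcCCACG

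The ERSE of Hspa5 ran from -65 to -47 relative to the start site of its window, and those of the other genes lay between -212 and -26. Syvn1 shares the element with the chaperones and had nearly equal levels in both groups, so a match did not go with a difference in every gene. ERSE-II was matched in Dnajb11 (ATTGGcCCACG) and Herpud1 (ATTGGgCCACG), against 12 of all 32851 windows (0.0365%). The UPRE core was found in Hspa5 only, against 2.01% of all windows. CARE was matched in Herpud1, Trib3, Chac1 and Asns and in no chaperone window, against 3.97% of all windows. Since most genes with ERSE or ERSE-II are chaperones, fold changes were set side by side among chaperones. The median on the log2 scale was 0.36 over the 8 with an exact match of either element and 0.35 over the 5 without. Pdia3, among those 5, holds a stretch that differs from an ERSE in its last letter, and Manf and Hyou1 had no window. These medians therefore cannot decide whether the element goes with a difference. A match describes these letters only, and binding of a factor was not measured.

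**Figure D3:**
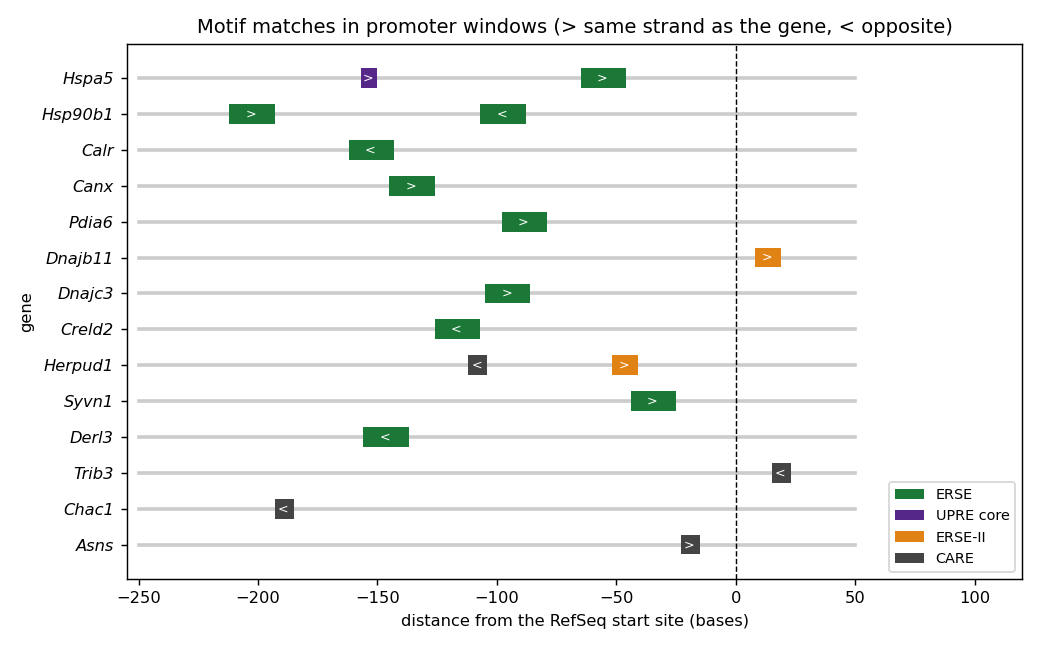
Matches of ERSE, UPRE core, ERSE-II and CARE in the RefSeq windows of the 14 genes that hold one, by distance in bases from the start site (x axis; grey lines, the windows; arrowheads, the strand). ERSE boxes lie between -212 and -26 in 9 genes, 7 of them chaperones, and CARE boxes appear only in Herpud1, Trib3, Chac1 and Asns.

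The degradation genes, with Sec61b of ER entry counted among them, did not move together. Of 8, 5 had a positive and 3 a negative log2 fold change, and their median was 0.13. Of the negative ones, Syvn1 (-0.043) and Derl1 (-0.067) were near 0. EdgeR called none of the 8. Sel1l, Edem1 and Derl2 stood higher in the DKO libraries without overlap, and Herpud1 stood lower without overlap. Herpud1 encodes a membrane protein of the ERAD complex and is a known target of both the ATF6 and PERK arms. The gene lies at chr8:94386429-94395371 on GRCm38.p6 and was counted at 102, 88.2, 89.6 and 99.1 CPM in DKO 1 to 4, against 156, 126 and 151 CPM in ApoE 1 to 3. Its highest DKO value lay below its lowest ApoE value, and it had the smallest p of the 34 genes, standing 69th of 14609 (log2 fold change of -0.60 with an SE of 0.10, adjusted p = 0.118 in edgeR). The ratio of Hspa5 to Herpud1 CPM, a pair chosen after the values were seen, was 7.17, 9.86, 7.98 and 8.54 in DKO 1 to 4, against 3.47, 4.25 and 3.21 in ApoE 1 to 3. A ratio within a library does not depend on how libraries were scaled, and it separated the groups without overlap.

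The other parts of the ERAD ligase complex gave different results. Sel1l, the adaptor of the ubiquitin ligase HRD1, was counted at 184, 184, 182 and 171 CPM in DKO 1 to 4, against 139, 142 and 141 CPM in ApoE 1 to 3. It was the steadiest of these genes within groups, and the groups were far apart relative to that spread (log2 fold change of 0.36 with an SE of 0.073, adjusted p = 0.129 in edgeR). Syvn1, the ligase HRD1 itself, averaged 63.7 ± 5.97 CPM in the DKO libraries (SD, n = 4) and 65.6 ± 4.61 CPM in the ApoE libraries (SD, n = 3), with overlap (log2 fold change of -0.043 with an SE of 0.10, adjusted p = 0.851 in edgeR). Edem1, which directs misfolded glycoproteins to ERAD, was counted at 141, 130.3, 140.3 and 114 CPM in DKO 1 to 4, against 99.2, 110.1 and 105 CPM in ApoE 1 to 3. DKO 4 was close to ApoE 2 and the others were well above (log2 fold change of 0.33 with an SE of 0.10, adjusted p = 0.167 in edgeR).

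Derlins are membrane proteins of the channel by which ERAD substrates leave the ER. Derl1 averaged 110.3 ± 4.36 CPM in the DKO libraries (SD, n = 4) and 116 ± 6.53 CPM in the ApoE libraries (SD, n = 3) and overlapped (log2 fold change of -0.067 with an SE of 0.077, adjusted p = 0.658 in edgeR). Derl2 was counted at 43.7, 43.8, 45.3 and 40.1 CPM in DKO 1 to 4, against 40.1, 38.3 and 34.6 CPM in ApoE 1 to 3. DKO 4 and ApoE 1 were nearly equal, so the separation was of the narrowest kind (log2 fold change of 0.20 with an SE of 0.087, adjusted p = 0.263 in edgeR). Derl3, which is known from secretory cells, was near the limit of the data with 8 to 87 counts a library, at 1.39, 0.891, 2.62 and 4.45 CPM in DKO 1 to 4, against 0.595, 1.93 and 0.436 CPM in ApoE 1 to 3. The order of its libraries crossed the groups (log2 fold change of 1.23 with an SE of 0.72, adjusted p = 0.380 in edgeR). Plasma cell markers summed to 222 to 371 CPM in the DKO libraries and 154 to 263 CPM in the ApoE libraries, with Sdc1 as the largest part in every library. Jchain, the marker that joins antibody units, was counted at 49.9, 18.5, 87.9 and 119 CPM in DKO 1 to 4, against 14.0, 62.2 and 1.2 CPM in ApoE 1 to 3. Within each group its libraries stood in the same order as those of Derl3, and the part of plasma cells in the Derl3 values was not tested. Sec61b, a subunit of the channel through which new proteins enter the ER, averaged 58.4 ± 4.11 CPM in the DKO libraries (SD, n = 4) and 55.9 ± 3.04 CPM in the ApoE libraries (SD, n = 3) and overlapped (log2 fold change of 0.064 with an SE of 0.087, adjusted p = 0.721 in edgeR).

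**Figure D4:**
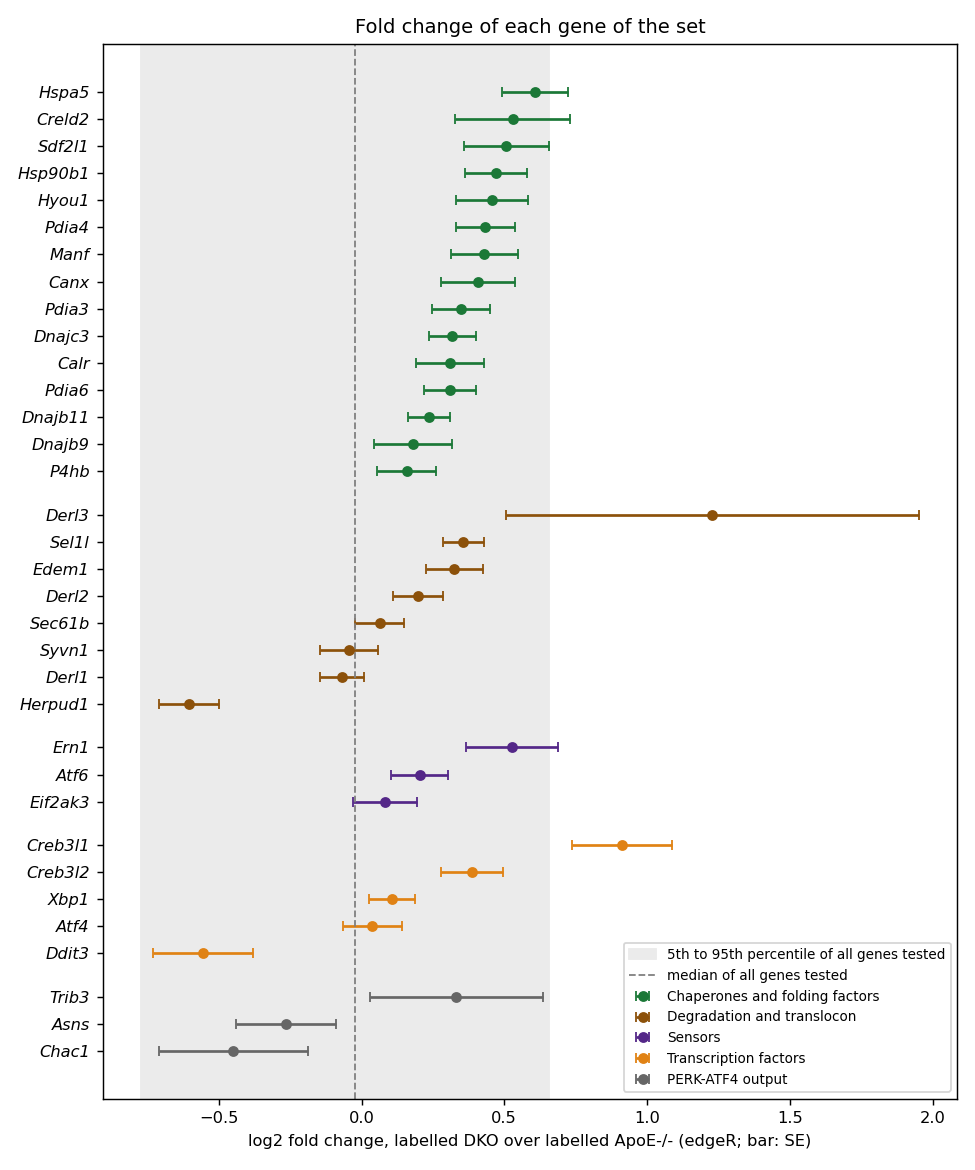
Log2 fold change (DKO over ApoE; points, with bars of 1 SE) of the 34 genes from edgeR, grouped and coloured by role, over the range from the 5th to the 95th percentile of all genes tested (grey, -0.77 to 0.66) and their median (dashed line). All 15 chaperones lie right of the dashed line and inside the grey range, Creb3l1 and the sparse Derl3 lie beyond it, and Herpud1, Ddit3 and Chac1 lie farthest left.

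The stress regulators had mostly small differences of mixed sign. Over the 11, the median was 0.11 on the log2 scale. Of them 8 were positive and 3 negative, and edgeR called none. The collagen-related factors Creb3l1 and Creb3l2 stood higher in the DKO libraries without overlap, Ern1 and Ddit3 differed in opposite directions with overlap, and Xbp1, Atf4 and Eif2ak3 were close to equal.

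The sensors were led by Ern1. Ern1 (IRE1) was counted at 31.1, 28.3, 27.9 and 20.8 CPM in DKO 1 to 4, against 16.3, 21.1 and 18.9 CPM in ApoE 1 to 3. DKO 1 to DKO 3 were above every ApoE library and DKO 4 was just below ApoE 2 (log2 fold change of 0.53 with an SE of 0.16, adjusted p = 0.167 in edgeR). Atf6 was counted at 87.6, 80.7, 83.5 and 67.6 CPM in DKO 1 to 4, against 69.0, 70.4 and 68.7 CPM in ApoE 1 to 3. The pattern was similar, with DKO 4 below all ApoE libraries and the other 3 above them (log2 fold change of 0.20 with an SE of 0.10, adjusted p = 0.309 in edgeR). Eif2ak3 (PERK) was counted at 48.6, 46.2, 43.4 and 36.3 CPM in DKO 1 to 4, against 41.3, 39.8 and 42.4 CPM in ApoE 1 to 3. DKO 4 was again the lowest library of all (log2 fold change of 0.083 with an SE of 0.11, adjusted p = 0.716 in edgeR).

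Of the factors that the sensors control, Xbp1 mRNA was counted at 190.1, 176, 195 and 176 CPM in DKO 1 to 4, against 178, 165 and 171 CPM in ApoE 1 to 3. The groups overlapped, and the counts include both spliced and unspliced mRNA (log2 fold change of 0.11 with an SE of 0.081, adjusted p = 0.489 in edgeR). Atf4 was counted at 175, 179, 187 and 152 CPM in DKO 1 to 4, against 182, 156 and 169 CPM in ApoE 1 to 3, again with overlap, and its control is known to be largely translational (log2 fold change of 0.037 with an SE of 0.10, adjusted p = 0.879 in edgeR). Ddit3 (CHOP), a factor known for its part in cell death under lasting ER stress, was counted at 21.3, 18.1, 20.6 and 25 CPM in DKO 1 to 4, against 35.0, 23.4 and 35.3 CPM in ApoE 1 to 3. DKO 4 was above ApoE 2, the other DKO libraries were below all ApoE libraries, and ApoE 1 and ApoE 3 were the highest (log2 fold change of -0.56 with an SE of 0.18, adjusted p = 0.170 in edgeR). Ddit3 thus stood on the opposite side to Hspa5: the ratio of Hspa5 to Ddit3 CPM, also chosen after the values were seen, was 34.5, 48.1, 34.7 and 33.8 in DKO 1 to 4, against 15.5, 22.8 and 13.7 in ApoE 1 to 3. Ddit3 relative to Atf4 was 0.124 ± 0.028 in the DKO libraries (SD, n = 4) and 0.184 ± 0.030 in the ApoE libraries (SD, n = 3), with DKO 4 (0.165) above ApoE 2 (0.151).

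Creb3l1 and Creb3l2 (OASIS and BBF2H7) are membrane-bound factors related to ATF6 that are known in mice for collagen production in bone and for secretion in cartilage. Creb3l1 (chr2:91982328-92024170 on GRCm38.p6) was counted at 57.3, 92.1, 93.5 and 84.3 CPM in DKO 1 to 4, against 45.9, 43.0 and 41.4 CPM in ApoE 1 to 3. It had the largest log2 fold change of the 34 genes after the sparse Derl3 and did not overlap (log2 fold change of 0.91 with an SE of 0.17, adjusted p = 0.122 in edgeR). DKO 1 was well below the other DKO libraries, and without it the edgeR adjusted p was 0.0364, the only call of any of the 34 genes when single libraries were left out. Creb3l2 was counted at 194, 202, 192 and 232 CPM in DKO 1 to 4, against 173, 143 and 154 CPM in ApoE 1 to 3. DKO 4 was the highest, and all DKO values exceeded ApoE 1 (log2 fold change of 0.39 with an SE of 0.11, adjusted p = 0.158 in edgeR). The ratio of Creb3l1 to Creb3l2 CPM was 0.40 ± 0.088 in the DKO libraries (SD, n = 4) and 0.278 ± 0.019 in the ApoE libraries (SD, n = 3), with DKO 1 (0.296) just below ApoE 2 (0.300).

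The output genes of the PERK and ATF4 arm did not stand higher in the DKO libraries as a group, and their median on the log2 scale was -0.26. Trib3, a pseudokinase induced by ATF4 and CHOP, averaged 6.58 ± 2.15 CPM in the DKO libraries (SD, n = 4) and 5.23 ± 1.04 CPM in the ApoE libraries (SD, n = 3) (log2 fold change of 0.33 with an SE of 0.30, adjusted p = 0.567 in edgeR). Chac1, an enzyme that degrades glutathione, averaged 4.74 ± 1.33 CPM in the DKO libraries (SD, n = 4) and 6.47 ± 0.549 CPM in the ApoE libraries (SD, n = 3) (log2 fold change of -0.45 with an SE of 0.26, adjusted p = 0.376 in edgeR). Asns, asparagine synthetase, averaged 26.9 ± 5.38 CPM in the DKO libraries (SD, n = 4) and 32.4 ± 4.32 CPM in the ApoE libraries (SD, n = 3) (log2 fold change of -0.26 with an SE of 0.18, adjusted p = 0.430 in edgeR). All 3 overlapped between the groups, and all 3 had their lowest value of any library in DKO 4. Across the 11 stress regulators, DKO 4 was the lowest DKO library for 8, the exceptions being Ddit3, Creb3l1 and Creb3l2. DKO 4 also had the highest summed smooth muscle markers, 28861 CPM, and the part of that in these values was not tested.

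Levels can be set between genes only per length, for which the authors' FPKM, which scale fragments by gene length and depth, were used. P4hb (289 ± 20.7 FPKM in the DKO libraries and 245 ± 14.8 FPKM in the ApoE libraries) was the highest and Calr (272 ± 20.9 FPKM in the DKO libraries and 209 ± 20.3 FPKM in the ApoE libraries) came next in both groups. Hspa5 was 3rd in the DKO libraries and 4th in the ApoE libraries (237 ± 21.4 FPKM in the DKO libraries and 150.4 ± 13.3 FPKM in the ApoE libraries), and Pdia3 took the other of these places (224 ± 12.4 FPKM in the DKO libraries and 170.4 ± 18.7 FPKM in the ApoE libraries). In the DKO libraries those neighbours were closer than their spread. Sec61b was at 140.5 ± 7.11 FPKM in the DKO libraries and 127 ± 6.52 FPKM in the ApoE libraries. Atf4 and Xbp1 followed Pdia6 in both groups, with Canx after them. Herpud1 was 14th in the DKO libraries and 11th in the ApoE libraries (37.9 ± 3.10 FPKM in the DKO libraries and 54.5 ± 3.76 FPKM in the ApoE libraries), while Manf was 11th in the DKO libraries and 13th in the ApoE libraries (50.5 ± 5.48 FPKM in the DKO libraries and 35.0 ± 1.35 FPKM in the ApoE libraries). The 4 lowest places went to Ern1, Trib3, Chac1 and Derl3 in both groups, with Derl3 at 1.09 ± 0.720 FPKM in the DKO libraries and 0.469 ± 0.381 FPKM in the ApoE libraries.

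Spread within groups bears on how small a difference could be seen. The median SD of log2 CPM within groups was 0.12 for the chaperones and 0.11 for the degradation genes, against 0.22 for all genes tested. For the output genes it was 0.35, so a difference of the size seen in the chaperones lies near their spread. Exons of 6 of the 34 genes overlap those of another gene in the count table, by GENCODE M21: Ddit3 shares 68 bases with Mars and Derl2 shares 231 bases with Mis12, each on the opposite strand. The other 4 are Syvn1, Pdia3, Pdia6 and Manf, with 14 to 91 shared bases. The kit marks strand, per the labels' protocols, but the strand setting of the counting is not given in the sources, and reads in those stretches are uncertain.

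Genes of the same pathways outside the 34 were read from lists chosen by known role. Of 109 such genes in the table, 106 passed the filter. EdgeR called none, DESeq2 called 7 higher and 3 lower, and voom called 8 higher and 14 lower. The median over the 106 was 0.0037 on the log2 scale. Of them 14 did not overlap with DKO above and 8 with DKO below, beside 7.08% and 9.24% of all genes. The contrast with the 15 chaperones is a description, since both lists were chosen with results of these data known.

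For other folding factors of the ER the median was 0.10 on the log2 scale, and 12 of 18 were positive. Uggt1, the enzyme that senses misfolded glycoproteins for the calnexin cycle, was at 167 ± 8.57 CPM in the DKO and 136 ± 11.9 CPM in the ApoE libraries (log2 fold change 0.30; here and for the genes that follow, SDs are over 4 DKO and 3 ApoE libraries). Ero1b, an oxidase of disulfide isomerases, was at 17.1 ± 3.18 CPM in the DKO and 11.5 ± 1.89 CPM in the ApoE libraries (log2 fold change 0.58), and its relative Ero1a was at 56.0 ± 23.3 CPM in the DKO and 33.7 ± 2.59 CPM in the ApoE libraries (log2 fold change 0.73). The DKO libraries were above the ApoE libraries without overlap for all 3. Genes of the translocon and of signal peptide handling had a median of 0.09. Of 14, 9 were positive, and 6 were separated with DKO above, beside 7.08% of all genes separated so. Their leading genes were Spcs3, a signal peptidase subunit (100.2 ± 15.5 CPM in the DKO and 63.7 ± 2.32 CPM in the ApoE libraries, log2 fold change 0.65), and the translocon-associated Ssr1 (216 ± 12.0 CPM in the DKO and 163 ± 11.5 CPM in the ApoE libraries, log2 fold change 0.40) and Ssr3 (314 ± 30.7 CPM in the DKO and 237 ± 19.5 CPM in the ApoE libraries, log2 fold change 0.41). Other ERAD genes had a median of 0.02. Of 15, 1 was separated with DKO above and 1 with DKO below, beside 7.08% and 9.24% of all genes. Among them Edem3, a mannosidase related to Edem1, was separated with DKO above (85.7 ± 8.42 CPM in the DKO and 63.9 ± 5.21 CPM in the ApoE libraries, log2 fold change 0.42), whereas Ube2g2 (56.6 ± 0.736 CPM in the DKO and 62.3 ± 2.85 CPM in the ApoE libraries, log2 fold change -0.14) and Ufd1 (49.2 ± 2.78 CPM in the DKO and 55.4 ± 6.41 CPM in the ApoE libraries, log2 fold change -0.17) were lower by small amounts.

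For other genes of the ATF4 and PERK output the median was -0.03, and 11 of 26 were positive. The 3 with the smallest p were all lower in the DKO libraries: Phgdh, of serine synthesis (26.9 ± 1.95 CPM in the DKO and 39.4 ± 5.43 CPM in the ApoE libraries, log2 fold change -0.55), the transcription factor Cebpb (112 ± 16.4 CPM in the DKO and 164 ± 19.8 CPM in the ApoE libraries, log2 fold change -0.55) and the lipoprotein receptor Vldlr (56.4 ± 12.3 CPM in the DKO and 81.1 ± 11.1 CPM in the ApoE libraries, log2 fold change -0.52). DESeq2 called 2 of the 26 lower and none higher, beside 4.80% of all genes lower and 3.23% higher. CPM did not overlap for 1 of the 26 with DKO above and 2 with DKO below, beside 7.08% and 9.24% of all genes. Other sensors and their processing genes had a median of 0.16, led by the kinase Eif2ak2 (39.4 ± 4.02 CPM in the DKO and 29.8 ± 5.26 CPM in the ApoE libraries, log2 fold change 0.40), the factor Creb3 (48.0 ± 3.91 CPM in the DKO and 56.5 ± 5.98 CPM in the ApoE libraries, log2 fold change -0.23) and the IRE1 adaptor Traf2 (28.8 ± 2.12 CPM in the DKO and 25.1 ± 1.92 CPM in the ApoE libraries, log2 fold change 0.20), all with overlap.

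The lists of chaperones outside the ER had negative medians. For cytosolic heat shock genes the median was -0.16, and 5 of 12 were positive. Beside 7.08% of all genes separated with DKO above and 9.24% with DKO below, 1 of these 12 was separated on each side. Their leading genes were Hspa1a (24.6 ± 7.40 CPM in the DKO and 41.6 ± 14.1 CPM in the ApoE libraries, log2 fold change -0.76), Dnajb1 (33.8 ± 1.94 CPM in the DKO and 38.6 ± 1.27 CPM in the ApoE libraries, log2 fold change -0.19) and Hspb1 (226 ± 114 CPM in the DKO and 425 ± 181 CPM in the ApoE libraries, log2 fold change -0.91). Mitochondrial chaperones and proteases had a median of -0.47, with 0 of 8 positive. Of the 8, 4 were separated with DKO below, beside 9.24% of all genes separated so. The list was led by the protease subunit Clpp (33.3 ± 6.53 CPM in the DKO and 56.8 ± 10.3 CPM in the ApoE libraries, log2 fold change -0.77), Grpel1 (56.1 ± 9.67 CPM in the DKO and 88.1 ± 22.9 CPM in the ApoE libraries, log2 fold change -0.65) and Lonp1 (72.3 ± 8.07 CPM in the DKO and 102 ± 22 CPM in the ApoE libraries, log2 fold change -0.50). Brown adipocyte markers, which include genes of mitochondrial heat production, summed to 219.8 to 497 CPM in the DKO libraries and 586 to 1679 CPM in the ApoE libraries, and their part in the mitochondrial chaperone values was not tested. The ratio of Hspa5 to Hspa8, the constitutive Hsp70 of the cytosol, was 0.795 ± 0.097 in the DKO libraries (SD, n = 4) and 0.469 ± 0.035 in the ApoE libraries (SD, n = 3).

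**Figure D5:**
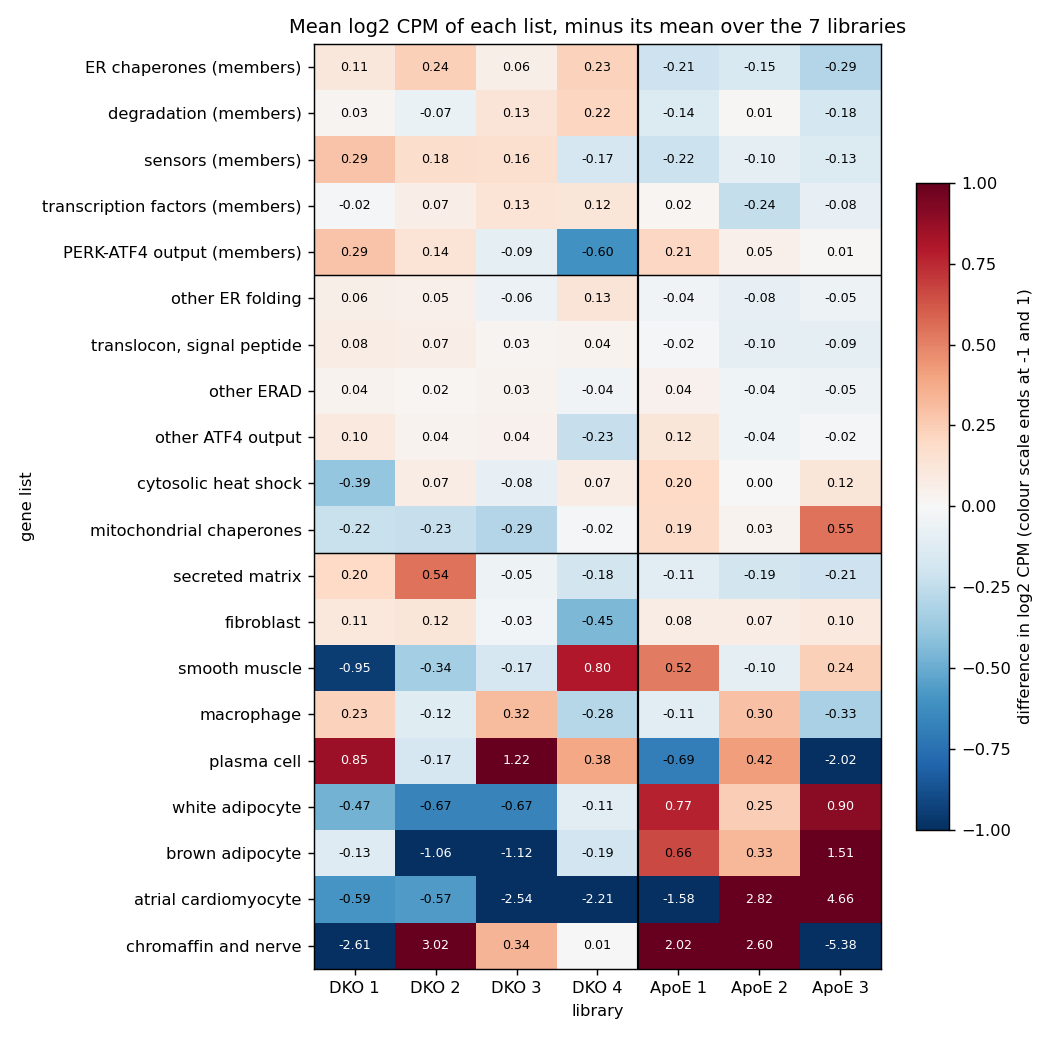
Mean log2 CPM of each gene list in each library, minus the mean of that list over the 7 libraries (colour and printed value), with DKO columns left of ApoE columns and rows for the lists of the 34 genes, other pathway lists and cell type markers. The ER chaperone row is 0.06 to 0.24 in the DKO libraries and -0.29 to -0.15 in the ApoE libraries, while mitochondrial chaperones and white adipocyte markers lie on the opposite side and the output row has its lowest value, -0.60, in DKO 4.

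Cell type markers are given beside these results. White adipocyte markers were lower in the DKO libraries for 10 of 10 genes (median log2 fold change -1.05), and they summed to the ranges given above. Secreted matrix genes (Col1a1, Col1a2, Col3a1, Col5a1, Col5a2, Fn1 and Sparc) had positive log2 fold changes for 7 of 7 (median 0.35). They summed to 43327 to 66932 CPM in the DKO libraries and 39495 to 42844 CPM in the ApoE libraries. Of them Col5a1 and Fn1 were separated with DKO above, the others overlapped, and Sparc was near 0 (log2 fold change 0.036). In DKO 4, Col1a1 (6551 CPM) and Col1a2 (4469 CPM) were below every ApoE library, while Fn1 was at 16412 CPM. Fibroblast markers summed to 21181 to 44718 CPM in the DKO libraries and 26647 to 27242 CPM in the ApoE libraries, a sum made mostly of Col1a1, Col1a2 and Col3a1, which the matrix list holds too. Of the 8 fibroblast markers 5 were positive and 3 negative, and the 3 negative ones, Dpt (log2 fold change -0.52), Pi16 (-1.45) and Dcn (-0.43), were separated with DKO below. Macrophage markers had positive log2 fold changes for 5 of 6 genes (median 0.38), T cell markers for 5 of 5 (0.74) and B cell markers for 4 of 4 (0.51). Plasma cell markers had them for 6 of 6 tested, with a median of 1.30, the largest of these lists. No marker of these 4 lists was separated with DKO above. The other macrophage marker, the scavenger receptor Cd163, was counted at 20.7, 15.4, 17.3 and 28.4 CPM in DKO 1 to 4, against 34.2, 80.5 and 56.7 CPM in ApoE 1 to 3, and it was separated with DKO below (log2 fold change of -1.48 with an SE of 0.31, adjusted p = 0.133 in edgeR). Chromaffin and nerve markers summed to 12.3 to 664 CPM in the DKO libraries and 1.64 to 559 CPM in the ApoE libraries, with the high values in DKO 2, ApoE 1 and ApoE 2. Of the 6 pancreatic acinar markers, Pnlip and Amy2a5 were at 0 counts in every library. Cela1 was counted in every library, at 4.88, 6.98, 9.10 and 8.33 CPM in DKO 1 to 4, against 7.09, 7.72 and 7.53 CPM in ApoE 1 to 3, with overlap. Ctrb1 reached 3.11 CPM in ApoE 3 and at most 0.422 CPM in the DKO libraries, and Cpa1 and Prss2 were at most 0.436 CPM in any library. Among atrial cardiomyocyte markers, Myl7 was at 0 in DKO 4 and ApoE 1. Without ApoE 2 and ApoE 3 the chaperone median was 0.36, a value that rests on ApoE 1 as the only library of its group.

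Genes of the circadian clock, whose levels in the aorta are known to follow the time of day, had log2 fold changes of 0.62 to 3.88 in size for all 8 listed, each larger than that of any chaperone. EdgeR called none of the 8. The activator Arntl was counted at 6.85, 41.3, 40.5 and 35.8 CPM in DKO 1 to 4, against 3.32, 4.37 and 3.82 CPM in ApoE 1 to 3, with the DKO libraries above and no overlap (log2 fold change of 3.02 with an SE of 0.60, adjusted p = 0.129 in edgeR). Its relative Npas2 was counted at 2.59, 35.1, 43.6 and 39.4 CPM in DKO 1 to 4, against 1.79, 1.88 and 2.45 CPM in ApoE 1 to 3, also without overlap (log2 fold change of 3.88 with an SE of 0.89, adjusted p = 0.146 in edgeR). In both, DKO 1 was far below the other DKO libraries. Of the 34 genes, DKO 1 was the lowest DKO library for 5 (Sdf2l1, Manf, Creld2, Syvn1 and Creb3l1) and the highest for 9. Of the 8 clock genes 3 were positive and 5 negative. Clock (log2 fold change 0.62) was separated with DKO above, and the repressors Per2 (-1.51) and Per3 (-1.41) with DKO below. The labels give no time of day at which tissue was taken, and the part of the clock in the values of the 34 genes was not tested. The part of adipocytes, matrix-secreting cells or immune cells in the chaperone, Herpud1 and Creb3l1 values was not tested.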

How the data were processed

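Polyadenylated RNA of 7 abdominal aorta libraries was sequenced with a strand-marking kit (TruSeq Stranded mRNA), per the labels' protocols. Trimmomatic, HISAT2, HTSeq, Cufflinks and DESeq, with GRCm38.p6, are named without versions or roles per the submitters' processing notes; neither the annotation nor the strand setting of counting is stated there. The authors deposited whole-number counts per gene, not normalized, and FPKM values, scaled by them for gene length and depth. Of 21878 genes, 4054 had no count, and 27 symbols turned into dates were restored through their gene identifiers. No library repeated another (chi-square per gene at least 35.1 for each pair of libraries).

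Counts were filtered with edgeR's filterByExpr (minimum count 10; 14609 genes), normalised by TMM and tested with edgeR 4.0.16's quasi-likelihood test on genotype (R 4.3.3), with Benjamini-Hochberg adjustment over all genes and a threshold of 0.05. Each SE is the size of the log2 fold change divided by the root of F, and a list's level averages the log2 CPM of its genes (prior count 2). A tie between replicate numbers across groups was looked for and could not be settled from so few same-numbered pairs. Alternatives were RLE size factors, DESeq2 1.42.0, limma 3.58.1 voom with quality weights, minimum counts of 50 or none, a replicate block, libraries left out, and log2 FPKM in limma (pseudocount 1 or 0.1; minimum mean 1 or none).

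The 34 genes, the lists by role and the marker lists were chosen with earlier results of these data known. Values in every library are given for 15 chosen genes and for any other of the 34 with an unadjusted p under 0.05, no overlap of CPM or a log2 fold change of 0.5 or more in size, and the others by mean and SD. Of each other pathway list up to 3 genes with the smallest p are named. Floors and counts cover counting error only.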

Additional observations from a re-analysis of the deposited data

Results flagged for a closer look

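In 1 of the 34 genes, 1 of the 4 DKO libraries stood apart from the other 3 by a gap above Dixon's critical value for groups of 4. Sel1l was counted at 171 CPM in DKO 4, against 182 to 184 CPM in DKO 1 to DKO 3 and 139 to 142 CPM in the ApoE libraries, so the library that stood apart was still above all ApoE libraries. Chance flags about 1 in 20 such groups, and 34 groups of 4 were looked at. Groups of 3 were not tested.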

How the results depend on the processing

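With edgeR, 0 genes were called higher and 4 lower in the DKO libraries over all genes, and 0 of the 34 genes and 0 of the other pathway genes. DESeq2 called 453 higher and 673 lower over all genes, 16 higher and 1 lower of the 34, and 7 higher and 3 lower of the other pathway genes. Limma voom with quality weights called 902 and 1467, 12 and 2, and 8 and 14. On filtered FPKM, with either pseudocount, 1 gene was called higher, and without the filter 0 were called lower. Whether the replicate numbers pair the libraries cannot be settled from so few pairs. Deviations of same-numbered libraries correlated at -0.39, 0.70 and 0.0036, and the highest value between differently numbered ones was 0.58 (ApoE 3 with DKO 1). With the replicate block 0 genes were called lower, 0 of the 34 were called, and the chaperone median was 0.36. With single libraries left out, 0 to 4 genes were called higher and 0 to 2 lower, 0 to 1 of the 34 was called higher (Creb3l1 without DKO 1), 18 to 21 of the 34 did not overlap with DKO above and 1 to 3 with DKO below (over all genes 7.93 to 17.9% and 10.2 to 20.2%), and the chaperone median was 0.31 to 0.44. Without ApoE 3 and DKO 1, 2 genes were called higher and 0 lower, 18 of the 34 did not overlap with DKO above and 2 with DKO below (over all genes 11.2% and 12.9%), and the chaperone median was 0.31. Without ApoE 2 and ApoE 3, 0 genes were called lower, and 20 of the 34 did not overlap with DKO above and 4 with DKO below (over all genes 21.3% and 25.6%); this leaves 1 ApoE library, assumed to vary like the DKO libraries. Causes were not tested. The log2 fold change turned sign in 4 genes with differences near 0. For Syvn1 it was 0.013 with voom, -0.092 to 0.038 with single libraries left out, 0.069 without ApoE 3 and DKO 1, 0.060 without ApoE 2 and ApoE 3, and 0.069, 0.073 and 0.069 on FPKM with a pseudocount of 1, with 0.1 and without the filter. For Sec61b it was -0.026 with voom. For Atf4 it was -0.018 to 0.097 with single libraries left out and -0.075 without ApoE 2 and ApoE 3. For Dnajb9 it reached 0.28 without ApoE 1 and was -0.0072 without ApoE 3 and DKO 1 and -0.0034 without ApoE 2 and ApoE 3. In the remaining 30 genes the sign was the same in every setting in which they were tested. Depth limited Derl3, with 8 to 87 counts, which was not tested at a minimum count of 50 or under the FPKM filter.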
